A study of Mus musculus with 6 samples.

Results

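Matricellular proteins are secreted proteins that sit in the extracellular matrix and act on cells more than they bear load. The genes described here are the CCN family members Ccn1 and Ccn2, the thrombospondins Thbs1 and Thbs2, tenascin C (Tnc), periostin (Postn), Sparc, and the matrix proteins fibronectin (Fn1) and versican (Vcan), 9 genes of 21887 protein-coding genes in the annotation. Their members are the Arid3a CUT&Tag peaks that overlap a gene body or the 10 kb on either side of it. Peaks from the 6 libraries that shared at least 1 base were joined into union regions, numbered along the chromosome within each gene. This gave 41 regions at the 9 genes, of 79295 in all.

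Arid3a is a DNA-binding protein of the ARID family, which prefers AT-rich sequence. CUT&Tag directs a transposase to a protein on chromatin with an antibody and sequences the fragments cut around it. In vascular smooth muscle, the contractile cells of the vessel wall, matricellular genes are known for low expression in quiescent vessels and for induction by injury, stretch and growth factors such as TGF-β. Ccn1 and Ccn2 are classical targets of YAP and TEAD, and their products bind integrins.

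The cells were mouse primary vascular smooth muscle cells from a commercial supplier, profiled with an antibody against Arid3a from 10000 cells per assay. The 3 NC libraries carried a negative control siRNA, and the 3 siArid3a libraries carried si-Arid3a#1, si-Arid3a#2 or si-Arid3a#3, each a different reagent by its label. Transfection lasted 24 h. The labels also describe a 36 h angiotensin II model of abdominal aortic aneurysm with untreated controls, but do not say which libraries were exposed or whether replicates were separate cultures. All p-values below therefore reflect library-to-library spread, part or all of which may be technical. Among the siArid3a-labelled libraries this spread may also include differences between the 3 reagents, which cannot be told apart from it. The peak lists hold no transcript level, so the loss of Arid3a RNA in the siArid3a libraries was not measured here.

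One feature of the lists bears on every direction below. In all 6 lists the peaks carry, inside the file, the name of a library of the other group with the same number. Groups were taken from the sample labels, and each direction holds for the libraries as labelled. Were the names inside the files right instead, every difference would change its sign.

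The lists held 43834 to 51682 peaks. The most common background among the peaks of a list was taken as the lowest that the peak caller used there. It was 0.621 to 0.673 fragments per base in the NC-labelled lists and 0.475 to 0.538 in the siArid3a-labelled lists. Raw fragment numbers are therefore not comparable between groups without scaling. Of the 6 smooth muscle markers, all had regions, 29 in sum with 9 in all 6 lists. The reference tables give a start for 3 of them. Acta2 (smooth muscle actin) and Smtn (smoothelin) had a peak within 1 kb of it in all 6 lists, and Cnn1 (calponin) in 4. Markers of other cell types had regions as well. The endothelial list of 4 had 26 regions with 6 shared, the fibroblast list (Pdgfra and Dpt) 14 with 6 shared, the epithelial list 7 with 3 shared, all at Cdh1 and none at Epcam, and the leukocyte list 7 with 5 shared, all 5 at Cd68, with none at Ptprc or Adgre1. Of these other markers with a start in the tables, Cd68 had a start peak in all 6 lists. Tie1, Ptprc, Cd3e, Epcam, Pdgfra and Dpt had none. Peaks of a DNA-binding protein do not measure transcript, so these counts do not identify the cells.

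Of the 41 regions, 22 (53.7%) had a peak in all 6 libraries, where the share over all union regions was 37.3%. A further 8 regions had a peak in 1 library, 8 in 2, and 1 each in 3, 4 and 5. Most peaks of the regions found in 3 or fewer libraries were weak. They had 6 to 33 fragments at the summit, with a median of 9, where whole lists had medians of 16 to 20. Their −log10 q was 1.88 to 9.73. Their median lay at the 12.4th percentile of −log10 q within its list, against 75.8 for the peaks of the 22 shared regions. The highest lay at the 56.3rd percentile, at Sparc region 6 in siArid3a 3. Of the 8 regions in 2 libraries, 6 were in 1 library of each group and 2, both in Tnc, were in a pair of NC-labelled libraries.

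**Figure D1:**
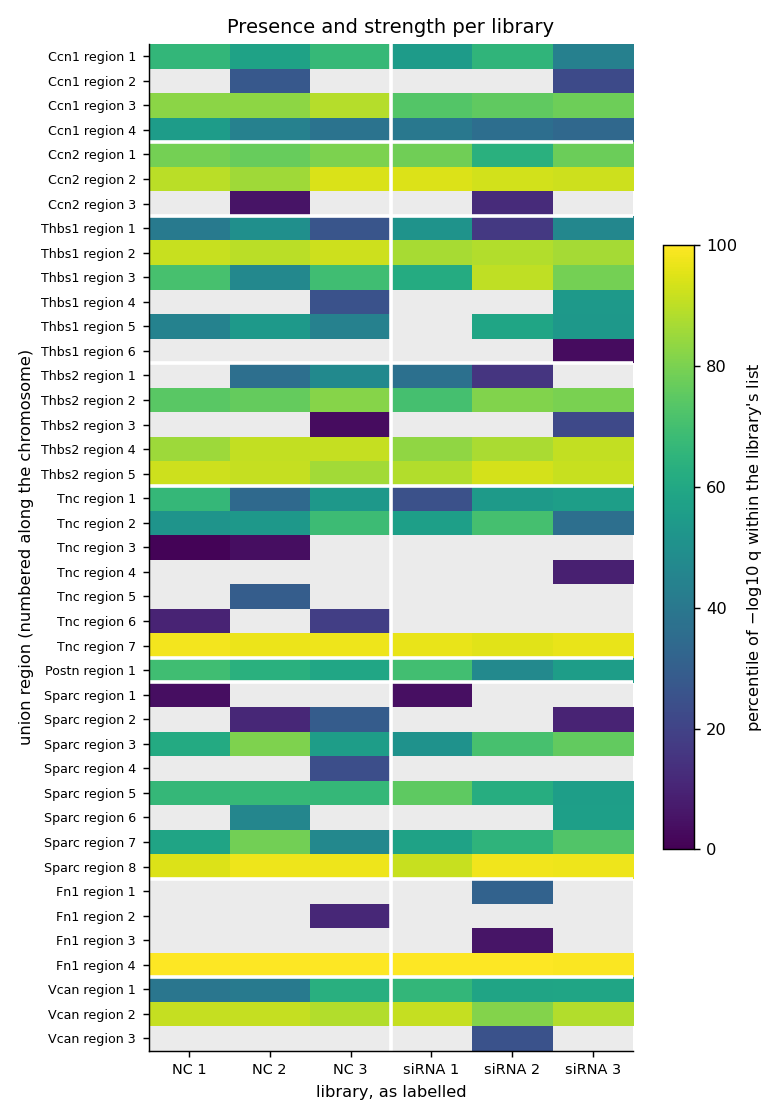
Presence and strength of peaks at the 41 union regions (rows, grouped by gene) in the 6 libraries (columns, as labelled). Colour gives the percentile of a peak's −log10 q within its own list and grey means no peak; 22 rows are filled in all 6 columns, and no row is filled for a whole group and empty for the opposite one.

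None of the 41 had a peak in all 3 NC-labelled libraries and no siArid3a-labelled one (0.608% of all regions did), and none had the opposite pattern (0.342% of all regions). At such shares about none would be found among any 41 regions, so these counts say little about the genes. Tnc regions 3 and 6 had peaks in NC-labelled libraries alone, 2 of the 3 each. The windows held 27, 32 and 33 peaks in NC 1, 2 and 3 and 26, 31 and 32 in siArid3a 1, 2 and 3. The means were 30.7 ± 3.21 and 29.7 ± 3.21 (SD, n = 3 each), a difference of -1.0 (two-sided exact permutation test, p = 0.6; the smallest p that 3 against 3 can give is 0.1). Leaving out NC 3 turned the difference to 0.167 and leaving out siArid3a 1 turned it to 0.833. The peaks covered 19.7 ± 0.185 kb and 17.6 ± 1.31 kb (SD, n = 3 each; exact permutation p = 0.1), and over whole lists the covered length was also lower, at 27.4 to 27.7 Mb against 22.5 to 25.4 Mb.

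A peak lay within 1 kb of a start in all 6 libraries at 7 of the 9 genes, Ccn2, Thbs1, Thbs2, Tnc, Postn, Sparc and Fn1. Over 17495 protein-coding genes with a start in the reference tables this share was 46.0%. The tables give a start for 6 of the 9, of which 4 had such a peak; the starts of Ccn2, Thbs1 and Fn1 were set from the known strand. Ccn1 had such a peak in NC 2 and siArid3a 3 only, and Vcan in siArid3a 2 only. Of the 22 shared regions, 7 were at a start, 6 lay elsewhere inside a gene, 6 upstream and 3 downstream. The 19 others were 2 at a start, 10 inside and 7 downstream.

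**Figure D2:**
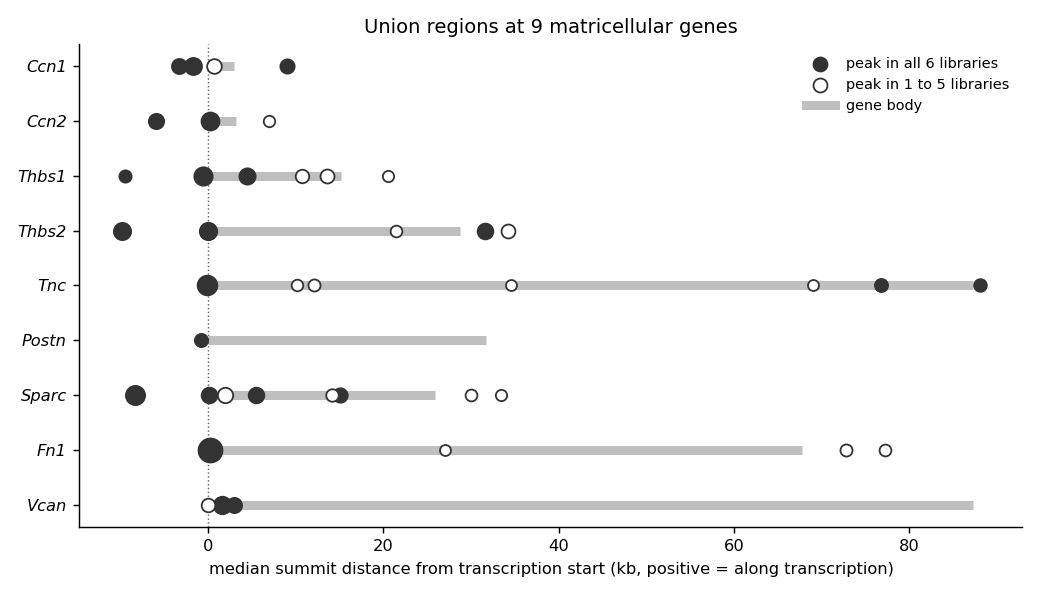
Positions of the 41 union regions relative to the transcription start (0 on the x axis, in kb, positive along transcription). Grey bars are gene bodies, filled circles the 22 regions with a peak in all 6 libraries, open circles the other 19, and the area grows with the mean summit fragments; 7 genes have a filled circle within 1 kb of 0, and the nearest filled circles of Ccn1 and Vcan lie 1657 bases upstream and 1669 bases inside.

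To show what lies under these start peaks, the promoter sequences of the 3 genes whose start peak reached into the promoter window in all 6 lists are given with that of Ccn1, where no peak touched it. Each runs from 250 bases before the start to 50 after it, 5′ to 3′ along the gene, from RefSeq (GRCm38.p6, which is mm10). Of the 9 genes, 6 matched an entry there; Ccn2, Thbs1 and Fn1 are without one. Capitals mark each match to a searched motif: the TATA box TATAAA, the TEAD motif GGAATG and the GC box GGGCGG, on either strand.
Tnc, chr4:64046966-64047265, minus strand: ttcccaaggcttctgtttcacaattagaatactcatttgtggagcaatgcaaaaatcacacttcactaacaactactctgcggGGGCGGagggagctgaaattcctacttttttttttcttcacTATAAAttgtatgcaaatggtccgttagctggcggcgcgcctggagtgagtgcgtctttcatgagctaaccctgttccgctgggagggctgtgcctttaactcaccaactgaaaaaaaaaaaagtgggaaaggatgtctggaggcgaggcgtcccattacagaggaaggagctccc
Thbs2, chr17:14694213-14694512, minus strand: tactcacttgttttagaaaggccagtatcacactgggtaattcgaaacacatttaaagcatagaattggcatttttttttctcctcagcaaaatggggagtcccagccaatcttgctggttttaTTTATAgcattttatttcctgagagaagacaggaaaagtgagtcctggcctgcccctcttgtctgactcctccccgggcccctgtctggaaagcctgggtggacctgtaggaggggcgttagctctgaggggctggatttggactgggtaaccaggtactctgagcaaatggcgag
Sparc, chr11:55420031-55420330, minus strand: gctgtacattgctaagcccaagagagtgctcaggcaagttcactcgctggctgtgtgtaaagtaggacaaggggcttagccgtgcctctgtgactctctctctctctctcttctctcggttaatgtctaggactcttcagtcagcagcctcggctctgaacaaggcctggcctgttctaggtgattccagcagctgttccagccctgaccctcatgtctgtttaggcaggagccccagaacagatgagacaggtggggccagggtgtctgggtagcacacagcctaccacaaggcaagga
Ccn1, chr3:145649936-145650235, minus strand: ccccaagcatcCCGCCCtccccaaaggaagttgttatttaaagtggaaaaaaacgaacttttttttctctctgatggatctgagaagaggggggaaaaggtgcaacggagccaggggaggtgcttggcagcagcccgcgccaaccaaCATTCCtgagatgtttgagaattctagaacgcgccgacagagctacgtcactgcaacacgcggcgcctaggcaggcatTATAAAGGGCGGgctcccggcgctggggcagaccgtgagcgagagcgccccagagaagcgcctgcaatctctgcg

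All 300 bases of the Tnc window were covered in every list. The Thbs2 window was covered over 276 to 300 bases and the Sparc window over 133 to 176. The ARID3A motif ATTAAA, searched on both strands, had no match in the 8 windows of the 6 genes, and 13.9% of 32851 promoters of this length hold it. Ccn1 had a TATA box 25 bases before its start, with a GC box directly after it and not overlapping, and a TEAD motif 103 bases before the start. TATAAA is held by 13.6% of promoters, GGAATG by 14.7% and GGGCGG by 35.7%. The Sparc window matched none of the motifs searched, which included the AP-1 motif TGACTCA (5.2% of promoters) and the CArG box bound by serum response factor (1.63%). A match describes letters only, and no match says only that these letters are not in this window.

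For each peak the authors deposited a fold over the local background at the summit and a −log10 q, which are the peak's own values and are used here to describe peaks within a list. The number of fragments at the summit was solved from the deposited fold and −log10 p. For the comparison between groups it was scaled by a median-of-ratios factor per library, and log2 values were compared with limma over all 29602 regions with a peak in all 6 libraries.

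None of the 22 shared matricellular regions passed this fit at an adjusted p (limma, Benjamini-Hochberg) of 0.05. Over all shared regions 66 (0.223%) passed, 36 lower and 30 higher in the siArid3a-labelled libraries. At an unadjusted p under 0.05, 4 of the 22 differed, where the share over all regions was 11.3%. They were the upstream region of Ccn1, the start regions of Thbs1 and Fn1, all lower in the siArid3a-labelled libraries, and a region inside Thbs1, which was higher. The median log2 difference, siArid3a minus NC, was -0.05 over the 22 regions, 15 of them below 0 and 7 above, beside a median of 0.01 over all shared regions, of which 49.1% were below 0. Half-widths of the 95% intervals ran from 0.164 to 0.527 on the log2 scale, without adjustment for the number of regions.

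**Figure D3:**
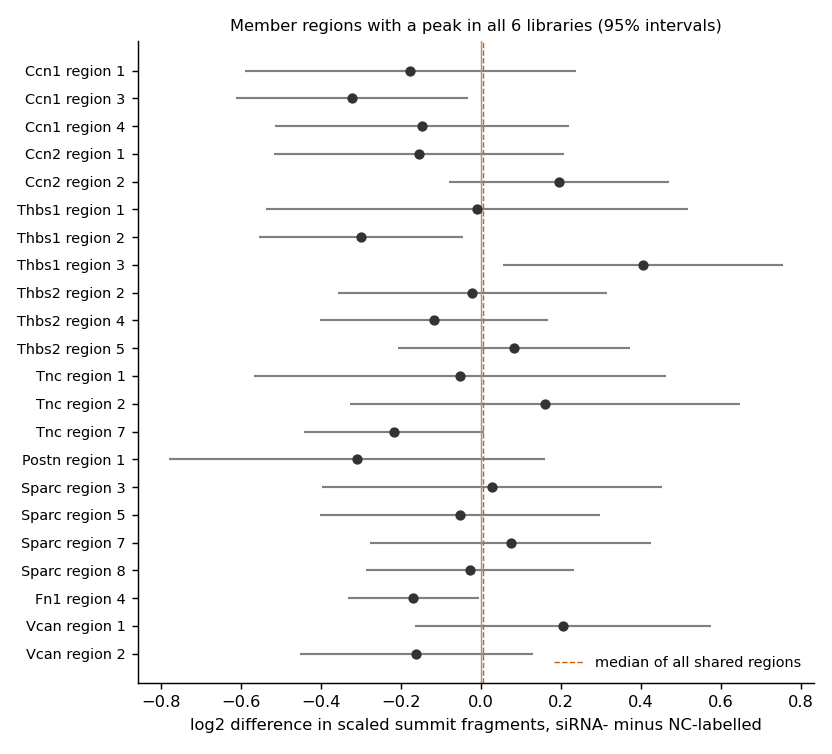
Log2 difference in scaled summit fragments, siArid3a- minus NC-labelled libraries (n = 3 each), at the 22 shared regions; points are limma estimates, bars their 95% intervals, and the dashed line the median of all shared regions. Estimates run from -0.32 at Ccn1 region 3 to 0.41 at Thbs1 region 3, and the intervals of 4 regions lie to 1 side of 0 before adjustment.

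Scaled fragments of all 3 siArid3a-labelled libraries lay below all 3 NC-labelled ones at 3 of the 22 regions, beside 7.80% of all shared regions. The opposite order was found at none, beside 8.06%. The 3 regions were at Ccn1, Thbs1 and Tnc and are described with their genes.

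Fn1 encodes fibronectin, the integrin ligand that organises the provisional matrix. It had the strongest peak of the family. Region 4 (chr1:71652578-71653810) covered the start, with summits 213 to 283 bases inside the gene; its outer end also overlaps the noncoding gene Apol7d. The summit held 283, 271 and 242 fragments in NC 1, 2 and 3 and 189, 193 and 193 in siArid3a 1, 2 and 3. The deposited fold was 15.7, 14.8 and 14.7 in the NC-labelled lists and 13.9, 14.2 and 13.1 in the siArid3a-labelled lists. By −log10 q, which was 141 to 227, the peak ranked 61st to 215th in lists of 43834 to 51682 peaks.

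After scaling, the Fn1 start held 254, 233 and 229 fragments in the NC-labelled libraries and 230.0, 211 and 196 in the siArid3a-labelled ones. The groups overlapped, with siArid3a 1 just above NC 3. The log2 difference was -0.17 (SE 0.08, 95% interval -0.33 to -0.01; limma adjusted p = 0.42). Over the 11 alternatives tried it ran from -0.23 (without siArid3a 1) to -0.07 (scaled by background coverage), with limma adjusted p from 0.13 to 0.78. It was -0.20 without NC 3 and -0.11 without siArid3a 3. This peak also had the highest local background of the family, 24.9 to 26.7 times the list's lowest background. The other 3 Fn1 regions, 1 inside the gene and 2 downstream, were each in 1 library with 6 to 10 fragments, and the outermost overlaps the next gene, Atic.

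Tnc encodes tenascin C, a matrix glycoprotein that is scarce in the resting vessel wall and appears on injury. Its start region 7 (chr4:64046700-64048232) had summits 55 to 57 bases before the start in 5 libraries and 32 bases inside the gene in siArid3a 2. The region also overlaps the noncoding gene 8030451A03Rik. Summit fragments were 122, 113 and 110 in the NC-labelled libraries and 77, 74 and 91 in the siArid3a-labelled ones. Folds as deposited were close to level across lists, at 12.03, 10.9 and 10.4 against 11.2, 11.4 and 11.1. The −log10 q was 86.1, 75.1 and 71.0 against 53.0, 51.7 and 62.0, all above the 95th percentile of the list.

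Scaled fragments at the Tnc start were 109.8, 97.5 and 104 in the NC-labelled libraries and 94.1, 81.4 and 92.8 in the siArid3a-labelled ones. The groups did not overlap. On the log2 scale the difference was -0.22 (SE 0.11, 95% interval -0.44 to 0.01; limma adjusted p = 0.46). It was -0.26 without NC 2 and -0.15 without siArid3a 2. Scaled by background coverage it was -0.12, and it was 0.02 when the deposited fold took the place of the fragments.

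The other Tnc regions lay far from the start. Region 2, which is inside the gene 76716 bases from the start, and region 1, just past its end, were shared by all libraries with mean summits of 15.0 and 12.8 fragments. Region 3 had a peak in NC 1 and NC 2 with 6 fragments each, and region 6 in NC 1 and NC 3 with 8 each. Neither had a peak in a siArid3a-labelled library. Both lay at or under the 18.7th percentile of −log10 q within their lists. Regions 4 and 5 were each in 1 library.

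Postn encodes periostin, which binds integrins and supports collagen assembly. It had 1 region, region 1 (chr3:54358370-54358956), upstream of the gene with the summit 709 bases before the first start at the same base in all 6 libraries. The peak was low in fragments for this family, with 22, 19 and 16 in the NC-labelled libraries and 14, 10 and 13 in the siArid3a-labelled ones. The deposited fold was 9.29, 8.80 and 7.67 against 9.68, 6.77 and 7.57. The −log10 q was 16.3, 14.04 and 10.9 against 13.3, 7.48 and 9.59. By −log10 q it lay at the 47.0th to 69.8th percentile, above the median in 5 of 6 lists. The local background was near the list's lowest, at 1.16 to 2.20 times.

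After scaling, the Postn summit held 20.2, 16.7 and 15.6 fragments in the NC-labelled libraries and 17.6, 11.5 and 13.7 in the siArid3a-labelled ones. The groups overlapped. The log2 difference of -0.31 had a wide interval, -0.78 to 0.16 (limma adjusted p = 0.66). It was -0.16 without siArid3a 2, -0.20 without NC 1 and -0.47 without siArid3a 1, -0.17 with a pseudocount of 5 and -0.11 on the deposited fold.

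Thbs1 encodes thrombospondin 1, which activates latent TGF-β and binds CD47 and CD36. Its start region 2 (chr2:118109983-118112128) was among the widest of the family, at 2146 bases as joined, and overlaps the noncoding gene Gm13986. The strongest summit lay 306 to 475 bases before the start in NC 1, NC 2, NC 3 and siArid3a 3, and 1370 to 1374 bases before it in siArid3a 1 and siArid3a 2. The values below thus come from 2 places within the region.

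Summit fragments at the Thbs1 start were 89, 82 and 89 in the NC-labelled libraries and 51, 59 and 62 in the siArid3a-labelled ones. In the deposited columns the fold was 6.92, 6.86 and 6.72 against 7.04, 7.32 and 6.38, and the −log10 q 42.6, 39.1 and 41.5 against 25.4, 30.1 and 28.0. Scaled fragments were 80.2, 70.9 and 84.5 against 62.5, 65.0 and 63.4. The groups did not overlap in scaled fragments but did in fold. The log2 difference was -0.30 (SE 0.13, 95% interval -0.55 to -0.05; limma adjusted p = 0.34), and 0.01 when the deposited fold was compared. It was -0.37 without NC 2, -0.25 without NC 3 and -0.20 when scaled by background coverage. The local background was 16.5 to 19.95 times the list's lowest in the NC-labelled lists and 13.4 to 16.5 times in the siArid3a-labelled ones; its part in the difference was not tested.

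Region 3 of Thbs1 (chr2:118116066-118116500), inside the gene, had summits 4456 to 4520 bases from the start. Scaled fragments were 39.9, 27.9 and 40.1 in the NC-labelled libraries and 35.8, 62.8 and 46.1 in the siArid3a-labelled ones. siArid3a 2 stood highest and siArid3a 1 lay within the NC range, so the groups overlapped. By limma the log2 difference was 0.41 (SE 0.18, 95% interval 0.06 to 0.76; limma adjusted p = 0.35), and the adjusted p ran from 0.0571 to 0.79 over the alternatives tried. The log2 difference was 0.20 without siArid3a 2 and 0.23 without NC 2, but 0.50 when scaled by background coverage and 0.60 without siArid3a 1. The deposited fold was 5.29, 3.92 and 4.90 against 4.92, 8.91 and 6.202.

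Of the other 4 Thbs1 regions, region 1 (chr2:118102053-118102763), upstream, was shared with a mean of 10.8 fragments. Region 5 (chr2:118125150-118125733), inside the gene, had a peak in every library but siArid3a 1. Region 4 was in NC 3 and siArid3a 3, and region 6, which overlaps Fsip1, in siArid3a 3.

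Thbs2 encodes thrombospondin 2, an inhibitor of angiogenesis. Its start region 4 (chr17:14693775-14694739) had summits within 26 bases of the start in 5 libraries and 203 bases inside the gene in siArid3a 1. Summit fragments were 55, 70 and 69 in the NC-labelled libraries and 40, 49 and 57 in the siArid3a-labelled ones. The authors' fold was 7.84, 9.02 and 8.35 against 7.42, 8.33 and 9.46, and the −log10 q 30.1, 41.9 and 39.0 against 21.3, 28.2 and 35.8.

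Scaled fragments at the Thbs2 start were 49.8, 60.5 and 65.6 against 49.2, 54.1 and 58.3, and the groups overlapped. The log2 difference was -0.12 (95% interval -0.40 to 0.17; limma adjusted p = 0.81). It was -0.03 without NC 3, -0.05 without siArid3a 1, -0.18 without siArid3a 3 and -0.23 without NC 1, -0.02 when scaled by background coverage and -0.01 on the deposited fold. Region 5 (chr17:14703485-14704228), upstream by 9676 to 9766 bases, had a mean of 54.3 fragments and folds of 8.71 to 11.9. Its deposited fold was above that of the start region in all 6 lists and its −log10 q in 5 of 6. Region 2 (chr17:14662299-14663010), downstream of the gene, was shared too, and its summits fell within 5 bases of each other. Regions 1 and 3 were in 4 and 2 libraries.

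Ccn1, which encodes the heparin-binding angiogenic protein once named Cyr61, had the most shared regions of the family for the length of its window. That window is the 3.015 kb gene with 10 kb on either side, so it is mostly flank. It held 3 shared regions in 23.0 kb, 13.0 per 100 kb, and none lay inside the gene. The median over protein-coding genes was 1.94 and Ccn1 stood at the 98.3rd percentile. Shared regions 3 and 4 were upstream within the noncoding gene Gm17501. Region 3 (chr3:145651455-145652554) had summits 1651 to 1658 bases before the Ccn1 start.

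Summit fragments at Ccn1 region 3 were 60, 61 and 67 in the NC-labelled libraries and 38, 41 and 43 in the siArid3a-labelled ones. The deposited fold was 6.08, 6.43 and 7.19 against 5.34, 5.78 and 6.18, and the −log10 q 26.1, 27.9 and 33.6 against 14.8, 17.3 and 19.3. Scaled fragments were 54.2, 52.8 and 63.7 against 46.7, 45.4 and 44.1. All NC-labelled libraries lay above all siArid3a-labelled ones. This gave a log2 difference of -0.32 (SE 0.15, 95% interval -0.61 to -0.03; limma adjusted p = 0.38). It stayed below 0 in each of the 11 alternatives tried, from -0.37 to -0.19, with adjusted p from 0.29 to 0.83.

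The region nearest the Ccn1 start, region 2 (chr3:145649137-145649509), did not cover it. It was inside the gene, with summits 767 and 685 bases from the start in NC 2 and siArid3a 3, 30 and 22 fragments, and folds of 3.02 and 3.10. The local background there was 13.8 and 11.9 times the list's lowest. Region 1 (chr3:145640684-145641648), downstream, and region 4 (chr3:145653007-145653696) were shared with means of 22.7 and 29.7 fragments.

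Ccn2 encodes connective tissue growth factor, a profibrotic partner of TGF-β. Its start region 2 (chr10:24595271-24597452) was the widest of the family at 2182 bases as joined, with summits 244 to 353 bases inside the 3.24 kb gene. In single libraries its peaks covered 961 to 2049 bases, as 2 peaks in NC 3, siArid3a 1 and siArid3a 2. The region also overlaps the noncoding gene Gm15270. Summit fragments were 65, 60 and 78 in the NC-labelled libraries and 64, 62 and 62 in the siArid3a-labelled ones, and the raw ranges overlapped. At the summit the deposited fold was 8.58, 7.55 and 9.99 against 10.5, 10.2 and 9.77, and the −log10 q 37.7, 31.6 and 49.9 against 42.9, 40.8 and 39.6.

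Scaled fragments at the Ccn2 start were 58.7, 52.0 and 74.1 in the NC-labelled libraries and 78.3, 68.3 and 63.4 in the siArid3a-labelled ones. The groups overlapped, with NC 3 among the siArid3a values. On the log2 scale the difference was 0.19 (95% interval -0.08 to 0.47; limma adjusted p = 0.63). It was 0.08 without NC 2, 0.11 without siArid3a 1, 0.33 without NC 3 and 0.29 when scaled by background coverage. Region 1 (chr10:24588872-24589947), upstream by 5697 to 6260 bases, was shared with folds of 6.71 to 8.83. Region 3, downstream, was in NC 2 and siArid3a 2 with 8 and 7 fragments.

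Sparc encodes a collagen-binding glycoprotein of remodelling matrix. It had the most regions, 8, of which 4 were shared. The strongest was not at the start but upstream, region 8 (chr11:55427939-55428825), with summits 8296 to 8397 bases before the start. Its fragments were 83, 106 and 99 in the NC-labelled libraries and 53, 91 and 92 in the siArid3a-labelled ones. The deposited fold was 10.4, 13.3 and 12.2 against 9.29, 13.8 and 12.8, and the −log10 q 54.4, 80.1 and 71.3 against 33.0, 70.9 and 68.5.

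Scaled fragments at Sparc region 8 were 74.9, 91.5 and 93.9 against 64.9, 100.009 and 93.8. NC 1 and siArid3a 1 were the low libraries and the groups overlapped. The log2 difference was -0.03 (95% interval -0.29 to 0.23; limma adjusted p = 0.97), and its sign changed without NC 2 (0.02), without NC 3 (0.03) or without siArid3a 1 (0.17), while it was -0.14 without siArid3a 2.

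At the Sparc start, region 7 (chr11:55419582-55420206) had summits 32 to 162 bases inside the gene and 37, 50 and 29 fragments in the NC-labelled libraries against 27, 32 and 39. Fold over local background was 4.43, 6.49 and 3.87 against 4.76, 5.20 and 5.66, and the −log10 q 11.8, 23.4 and 7.83 against 9.47, 12.3 and 16.2. Scaled fragments were 33.6, 43.4 and 27.8 against 33.4, 35.5 and 40.1, and the groups overlapped, with a log2 difference of 0.08 (95% interval -0.28 to 0.43; limma adjusted p = 0.92) that was -0.08 without NC 3, 0.24 without NC 2, 0.13 without siArid3a 1 and 0.0033 without siArid3a 3. Regions 3 and 5, inside the gene, were shared with means of 23.7 and 34.8 fragments.

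Vcan encodes versican, a large proteoglycan of the vessel wall that binds hyaluronan. Its strongest region was inside the gene and not at the start. Region 2 (chr13:89740122-89741467) had summits 1651 to 1806 bases from the start and overlaps the noncoding gene Gm4117. Its fragments were 69, 73 and 60 in the NC-labelled libraries and 55, 39 and 54 in the siArid3a-labelled ones. The deposited fold was 9.01, 8.80 and 7.78 against 8.71, 7.66 and 8.43, and the −log10 q 41.3, 42.8 and 32.3 against 32.4, 21.5 and 31.2.

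Scaled fragments at Vcan region 2 were 62.3, 63.1 and 57.1 against 67.4, 43.2 and 55.3. siArid3a 1 stood highest and siArid3a 2 lowest of the 6, so the groups overlapped. By limma the log2 difference was -0.16 (95% interval -0.45 to 0.13; limma adjusted p = 0.73) and 0.01 without siArid3a 2. It was -0.32 without siArid3a 1, -0.06 when scaled by background coverage and -0.04 on the deposited fold. Region 1 (chr13:89739362-89739688), also inside the gene, was shared with folds of 3.68 to 5.18. The region at the start, region 3, was in siArid3a 2 alone, with 18 fragments and a fold of 3.62.

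**Figure D4:**
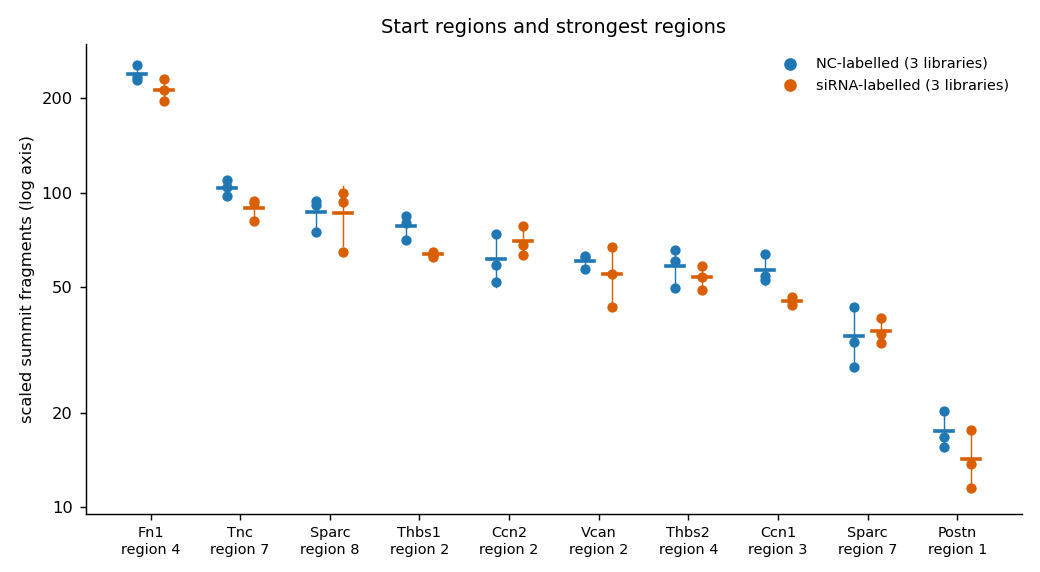
Scaled summit fragments (log axis) in each library at the start regions found in all 6 libraries and the strongest region of each gene, in order of mean fragments; points are libraries, wide bars group means and thin lines the SD (n = 3 each). Fn1 stands highest and Postn lowest, and the groups lie apart at Tnc region 7, Thbs1 region 2 and Ccn1 region 3 only.

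In order of mean summit fragments, the strongest region of each gene ran from Fn1 (228.5) through Tnc (97.8), Sparc (87.3), Thbs1 (72.0), Ccn2 (65.2), Vcan (58.3), Thbs2 (56.7) and Ccn1 (51.7) to Postn (15.7). Neighbours in this order from Tnc down to Ccn1 overlapped in scaled fragments across libraries, while Fn1 and Postn stood apart from every other gene in every library. Shared regions with more fragments also tended to have a higher local background. Both values were solved from the same deposited fold and −log10 p, so they are not independent measurements, and no correlation was computed. The local background was 1.16 to 2.33 times the list's lowest at Postn and at the far regions of Tnc (regions 1 and 2) and Thbs1 (region 1), and 24.9 to 26.7 times at the Fn1 start. A library made without the Arid3a antibody was not analysed here, and how much of these summits comes with such local background was not tested.

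**Figure D5:**
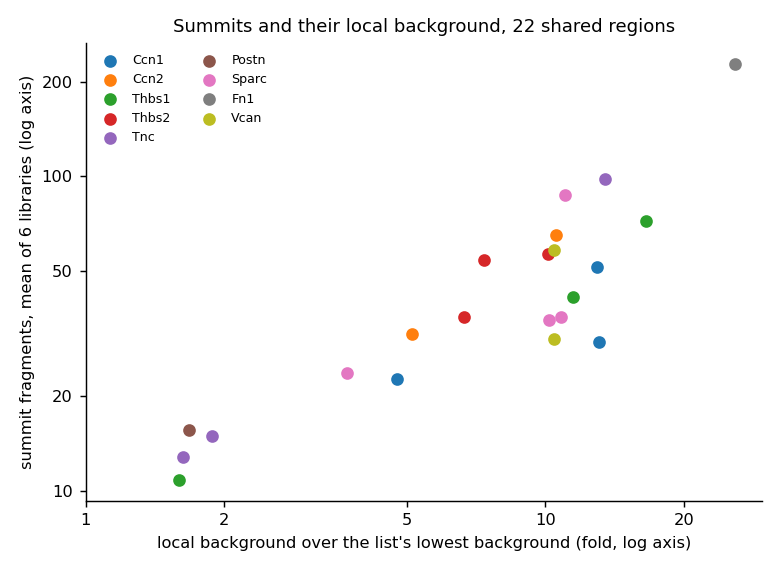
Mean summit fragments of the 22 shared regions against the local background, given as fold over the lowest background of the same list, averaged over 6 libraries (both axes log). Both axes were solved from the same deposited values and are not independent. The Fn1 start is at the top right, and the Postn region and the distal regions of Tnc and Thbs1 at the bottom left.

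Other matricellular and matrix genes, a list of 23 relatives such as Ccn4, Thbs3, Tnxb, Spp1 and Acan, had 117 regions, of which 42 (35.9%) had a peak in all 6 libraries. A start peak in all 6 was found at 1 of the 16 relatives with a start in the reference tables, Thbs3, and 12 of them had none in any library. None of their shared regions passed the limma fit, and 6 had an unadjusted p under 0.05, with a median log2 difference of -0.04. Tnxb, which encodes tenascin X, had 8 shared regions in a 79.4 kb window but no start peak in any library. Smoc1 and Smoc2, relatives of Sparc, had 7 each in windows of 179.6 and 145.3 kb. Which other genes these regions overlap is not given here. Thbs4, Spp1 (osteopontin), Acan (aggrecan), Ncan, Hapln1, Spock1, Spock2 and Spock3 had no region with a peak in all 6 libraries. Among them, Spp1 had 3 regions and a start peak in 5 libraries, Ncan had 4 regions, Thbs4 2 and Hapln1 1. Acan, Spock1, Spock2 and Spock3 had no region at all.

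The receptors of these proteins, 12 genes of integrins and other surface receptors, had 115 regions, of which 53 (46.1%) were shared. A start peak in all 6 libraries was found at 8 of the 11 with a start. None passed the limma fit, 3 had an unadjusted p under 0.05, and the median log2 difference was -0.01. Itgb3 and Itgb5, which are among the integrin chains that pair with the alpha v chain, had 11 and 10 shared regions in windows of 82.5 and 139.7 kb. Cd44, the hyaluronan receptor, and Lrp1, which clears thrombospondin and CCN2, had 7 each in windows of 110.5 and 103.0 kb. Itga9, which binds tenascin C, and Cd36, a thrombospondin receptor, had no shared region. In the relatives and in the receptors, 1 region each had a peak in all 3 siArid3a-labelled libraries and no NC-labelled one, at Ccn6 and Itgb5. Over all regions 0.342% had this pattern, so 1 region of 117 and 1 of 115 says little about these genes.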

How the data were processed

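The submitters' processing notes name Bowtie2, Picard and MACS2 as tools and mm10 as the build, with versions not given in the sources used here. For each library the authors deposited 1 narrowPeak list, with the fold at the summit (a ratio over local background), −log10 p, −log10 q and an integer score that is 10 times the −log10 q cut to a whole number.

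Summit fragments n and local background were solved from fold = (n + 1)/(background + 1) and the Poisson tail; all peaks were solved within a relative tolerance of 0.002, and 5000 of 5000 simulated summits were recovered. Peaks sharing 1 base formed union regions. log2 of (fragments + 0.5), scaled by the median of ratios, was fitted with limma 3.58.1 (R 4.3.3, trend) over regions with a peak in all 6 lists, with Benjamini-Hochberg adjustment. In simulated data, 179 of 200 regions changed by 1.5 on the log2 scale were recovered. These were planted among regions with a mean of at least 15 fragments and drawn at a fixed spread, not the observed one. Estimates at the 22 shared regions ran from -0.32 to 0.41, and recovery of changes that small was not simulated. Group means per library were compared by exact permutation over 20 assignments. Summits shared no deviation by replicate number (correlations 0.041, 0.032 and -0.022 for numbers 1 to 3), so the numbers were not taken to pair the libraries.

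Gene bodies, starts and promoters came from RefSeq tables of GRCm38.p6. The start of Ccn2, Thbs1 and Fn1 was taken as the gene's end on its known strand, as the tables used here give no start for them; exons and introns were not distinguished. All 9 genes are named; values per library are given for the region at the start, the region with the most fragments and any region past a test, and Ccn1, Thbs1 and Tnc regions singled out for order or unadjusted p were chosen after their values were seen. The members and lists were chosen with earlier results of these data known. Python 3.11.15, pandas 2.3.3, numpy 2.4.6, scipy 1.17.1 and matplotlib 3.10.9 were used.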

Additional observations from a re-analysis of the deposited data

How the results depend on the processing

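Of 169 recomputed values, 156 kept their direction and side of the threshold, or moved by less than 1.5 times for a count. The exact tests of peaks per library cannot give a p under 0.05, so those values could change in direction only. In each of the 15 alternatives, 0 matricellular regions passed limma, with 1 to 6 at an unadjusted p under 0.05. The alternatives with gene bodies only and with 20 kb either side used the main fit with another window. Over all shared regions the calls moved with the setting, from 36 lower and 30 higher to 65 and 50 with the replicate block, 10 and 98 when scaled by background coverage (which moved the median of all regions to 0.10), 34 and 57 with a pseudocount of 5, 13 and 8 with siArid3a 2 and 3 averaged, 0 and 0 on the log2 of the deposited fold (2183 at an unadjusted p under 0.05), and from 4 and 5 (without NC 1) to 213 and 157 (without siArid3a 1) with single libraries left out. With the replicate block the difference in peaks was -1.0 (exact p = 0.25, the smallest it can give), and it changed no call at these genes.

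With gene bodies only, 12 regions were in all 6 libraries. Regions in every library of a group and none of the other numbered 0 to 1 with single libraries left out, 1 without NC 2 (Tnc region 6) and 1 without NC 3 (Tnc region 3). The difference in peaks per library ran from -2.83 to 0.833 with single libraries left out, above 0 without NC 3 and without siArid3a 1. Log2 differences that changed sign were those of Sparc region 7 (-0.0778 to 0.243 with single libraries left out, below 0 without NC 3), Sparc region 8 (0.0728 with background coverage, and -0.144 to 0.166 with single libraries left out, above 0 without NC 2, NC 3 or siArid3a 1), Thbs1 region 2 (0.0143) and Tnc region 7 (0.0175) on the deposited fold, and Vcan region 2 (-0.315 to 0.00664 with single libraries left out, above 0 without siArid3a 2). The cause was not tested. At regions found in 3 or fewer libraries, summits of 6 to 33 fragments, most of them weak, limit what presence in a list can show.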
